A study of Macaca fascicularis with 7 samples.

Results

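The 5 genes FIGLA, NOBOX, LHX8, SOHLH1 and SOHLH2 encode transcription factors of the oocyte, and their transcripts were followed through maturation in cynomolgus monkey (Macaca fascicularis). Members were chosen by name, and each matched a single row of the 28161 usable gene rows. All 7 libraries came from wild type oocytes, with no strain, age or number of animals given. Metaphase II (MII) oocytes matured in culture (in vitro matured, IVM; labelled treated) gave 3 libraries. MII oocytes collected after maturation inside the animal (in vivo, IVO; labelled control) gave 2, and immature germinal vesicle (GV) oocytes, also labelled control, gave 2. How many oocytes or animals stand behind a library is not given in the sources used here, so p-values measure only the spread between these libraries, which may be technical.

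A primate or mouse oocyte builds its store of mRNA while it grows inside the follicle, and transcription is largely silent by the time meiosis resumes. Until the embryo's genome is activated, transcript levels then change mainly by decay and by control of the poly(A) tail. In the mouse, SOHLH1 and SOHLH2 are germ cell basic helix-loop-helix (bHLH) factors that act early, during the formation and first growth of follicles. FIGLA is a bHLH factor needed there for primordial follicles and for the zona pellucida genes. The homeodomain factors NOBOX and LHX8 are also needed in the mouse for oocyte growth and survival.

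Each gene lay apart from its neighbours in the deposited annotation, whose genome build is not given in the sources used here. FIGLA lies on chromosome 13, bases 39075550 to 39087862, plus strand, with 5 exon blocks and a summed exon length of 720 bases. SOHLH1 lies on chromosome 15, bases 2689911 to 2696061, plus strand, with 8 exon blocks and 1412 bases. SOHLH2 lies on chromosome 17, bases 15640533 to 15684124, minus strand, with 11 exon blocks and 2419 bases. NOBOX lies on chromosome 3, bases 177360618 to 177379689, minus strand, with 12 exon blocks and 2832 bases. LHX8 lies on chromosome 1, bases 152118104 to 152145329, minus strand, with 8 exon blocks and 1727 bases. The number of other genes with an exon inside the span of any member was 0. The nearest exon of any other gene was that of LOC107127172, 1352 bases from LHX8.

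Library totals ranged from 22901970 to 29245733 counts. Levels are CPM, counts relative to a library size scaled by the trimmed mean of M values (TMM), and RPKM, which is CPM per kilobase of the deposited gene length, where genes are set against each other. Values after ± are SDs between libraries. TMM factors were 0.766 to 0.985 in the MII libraries, against 1.42 and 1.38 in GV, and raise MII levels relative to GV. Spearman correlations over the tested genes were 0.9265 to 0.9515 between IVM MII libraries, 0.918 between the IVO MII libraries and 0.9793 between the GV libraries. For IVM MII replicate 3 the correlations with IVO MII were 0.9106 and 0.9102. Both GV libraries lie in a different sequencing folder from the MII libraries, so wherever GV is compared, folder and stage cannot be told apart. In these counts per library, fewer transcripts per oocyte and a smaller share of transcripts with a primed poly(A) tail cannot be told apart, nor can fewer cells of a type and less RNA per cell. Of the 11 oocyte markers found, 0 were at 0 in any library.

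FIGLA transcripts were several-fold lower in both kinds of MII oocyte than in GV oocytes. FIGLA had 16.8, 26.2 and 13.1 CPM in IVM MII, 8.31 and 8.68 CPM in IVO MII, and 83.5 and 92.8 CPM in GV. The ranges of the 3 groups did not overlap, and the IVO MII libraries lay within 1.04-fold of each other. The mean was 18.7 ± 6.76 CPM in IVM MII, 8.49 ± 0.261 CPM in IVO MII and 88.1 ± 6.54 CPM in GV. FIGLA fell in IVO MII against GV (log2 fold change -3.37, SE 0.46, edgeR adjusted p = 0.00249), a 10.4-fold lower level. It fell in IVM MII against GV (log2 fold change -2.23, SE 0.38, edgeR adjusted p = 0.00327), a 4.70-fold lower level. Without TMM factors the mean level of FIGLA was 7.69-fold lower in IVM MII and 16.0-fold lower in IVO MII than in GV. Between IVM and IVO MII the log2 fold change was 1.14 (SE 0.40, edgeR adjusted p = 0.156), which did not pass the threshold of 0.05.

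SOHLH2 went the opposite way and was higher in both kinds of MII oocyte than in GV. SOHLH2 had 272, 277 and 333.2 CPM in IVM MII, 648 and 675 CPM in IVO MII, and 118 and 150 CPM in GV. Every IVM MII library lay between the IVO MII and GV libraries. SOHLH2 rose in IVO MII against GV (log2 fold change 2.30, SE 0.32, edgeR adjusted p = 0.00262), a 4.93-fold higher level. It rose in IVM MII against GV (log2 fold change 1.13, SE 0.29, edgeR adjusted p = 0.0164). That last call was lost without GV replicate 1 (edgeR adjusted p = 0.2) and without GV replicate 2 (0.0919). Without TMM factors the mean level of SOHLH2 was 1.35 times that of GV in IVM MII, against 2.19 times with them, and 3.21 times in IVO MII. Between IVM and IVO MII the mean was 294 ± 34.0 CPM against 662 ± 18.9 CPM, which is -1.17 on the log2 scale (SE 0.27, edgeR adjusted p = 0.0676). It missed the threshold, and passed it in 6 of 17 alternative settings, among them without IVM MII replicate 3 (edgeR adjusted p = 0.0344), with limma voom (0.0434), with DESeq2 (0.00111) and with the newer edgeR fit (0.0493).

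SOHLH1, the other SOHLH gene and a dimer partner of SOHLH2 in the mouse, was close to the limit of detection. It had 0, 0 and 7 counts in IVM MII, 0 and 0 counts in IVO MII, and 35 and 5 counts in GV. A single GV library therefore held most of the SOHLH1 counts, and IVM MII replicate 3 was the only MII library with any. A count of 0 allows up to 3 counts, which is 0.116 to 0.161 CPM in these MII libraries, against 1.06 and 0.158 CPM in GV. Against that limit in each library, SOHLH1 was at least 4.53-fold lower in IVO MII than in GV, but only at least 1.18-fold lower without GV replicate 1, and at least 7.88-fold without GV replicate 2. Over summed counts, the level in GV was 6.09 times that in IVM MII (95% counting interval 2.70 to 16.1). That ratio was 1.56 (0.389 to 5.70) without GV replicate 1 and 10.4 (4.56 to 27.8) without GV replicate 2. IVM MII replicate 3, at 0.263 CPM, lay above GV replicate 2, so the ranges of IVM MII and GV overlapped. The gene failed the filter on low counts in the main fit and was not tested there. It passed the filter in the fits without IVO MII replicate 1, IVO MII replicate 2 or GV replicate 2, which thus tested 5 members. Without that filter its edgeR adjusted p was 0.459 between IVM and IVO MII, 0.135 between IVO MII and GV and 0.362 between IVM MII and GV.

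LHX8 transcripts were lowest in IVO MII. LHX8 had 46.6, 53.1 and 11.1 CPM in IVM MII, 3.41 and 9.45 CPM in IVO MII, and 92.9 and 63.4 CPM in GV. With TMM scaling, IVM MII replicates 1 and 2 lay close to the lower GV library, while IVM MII replicate 3 lay close to the higher IVO MII library. Without TMM factors the mean level of LHX8 was 3.55-fold lower in IVM MII than in GV, against 2.12-fold with them. In IVO MII it was 18.1-fold lower than in GV without them. LHX8 fell in IVO MII against GV (log2 fold change -3.60, SE 0.81, edgeR adjusted p = 0.0125), a 12.1-fold lower level. Leaving out IVO MII replicate 1 ended the call (log2 fold change -3.06, edgeR adjusted p = 0.0688), as did leaving out GV replicate 1 (0.0503). Without IVO MII replicate 2 the log2 fold change was -4.53. Between IVM MII and GV, at 36.9 ± 22.6 CPM against 78.2 ± 20.9 CPM, the log2 fold change was -1.08 (SE 0.65, edgeR adjusted p = 0.223). Between IVM and IVO MII it was 2.52 (SE 0.74, edgeR adjusted p = 0.11), the highest of the 4 tested members. LHX8 passed that test in 4 of 17 alternative settings, among them without IVM MII replicate 3 (2.93, edgeR adjusted p = 0.0281) and with DESeq2 (0.00519).

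NOBOX was low and did not pass any of the 3 tests. NOBOX had 4.83, 5.79 and 9.36 CPM in IVM MII, 4.03 and 12.6 CPM in IVO MII, and 20.1 and 19.2 CPM in GV. Every MII library lay below both GV libraries, and the 2 kinds of MII oocyte overlapped. Without TMM factors the mean level of NOBOX was 4.75-fold lower in IVM MII and 3.50-fold lower in IVO MII than in GV. With TMM factors it was 2.95-fold and 2.36-fold lower. The log2 fold change was -1.24 (SE 0.63, edgeR adjusted p = 0.172) between IVO MII and GV and -1.56 (SE 0.56, edgeR adjusted p = 0.0585) between IVM MII and GV. Without IVO MII replicate 2, NOBOX was called lower in IVO MII than in GV (-2.29, edgeR adjusted p = 0.0447). In 12 of the 17 alternative settings it was called lower in IVM MII than in GV. Between IVM and IVO MII the log2 fold change was -0.32 (SE 0.57, edgeR adjusted p = 0.789), and 0.65 without IVO MII replicate 2, where the IVO MII libraries differed 3.12-fold.

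**Figure D1:**
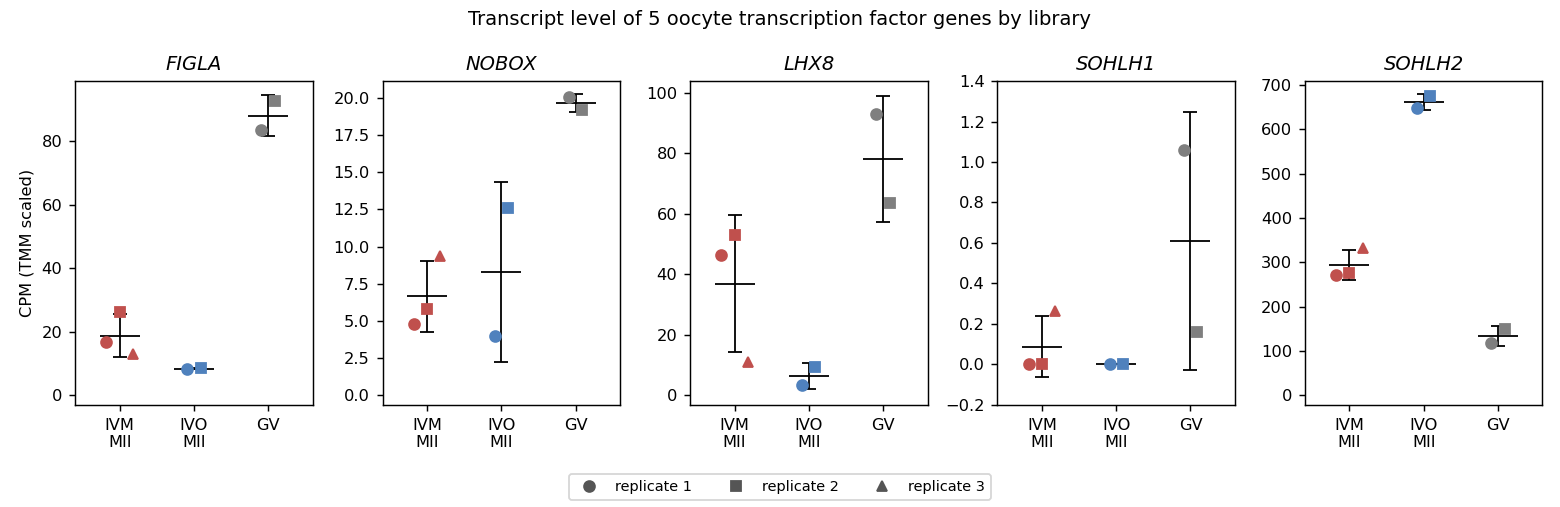
CPM of each gene in each library (points, shaped by replicate) with the group mean and SD (bars); each panel has its own linear axis. FIGLA at 83.5 and 92.8 CPM in GV lies above all MII libraries, SOHLH2 at 648 and 675 CPM in IVO MII lies above all others, and the LHX8 point at 11.1 CPM in IVM MII is replicate 3.

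Set against all genes tested, the members' counts of calls read as follows. In IVM against IVO MII, edgeR called 0 of the 4 tested members, where 1.47% of the 16374 tested genes were called, 0.892% higher and 0.58% lower. At an unadjusted edgeR p under 0.05 stood 3 of the 4, against 21.1% of all tested genes, and DESeq2 called 2, limma voom 1 and the newer edgeR fit 1. Those tools called 12.3%, 3.04% and 4.71% of all tested genes there, in that order. Between IVO MII and GV, 3 of 4 were called, where 28.1% of all tested genes were, and 3 stood at an unadjusted p under 0.05, where 42.1% did. Of the 4, 1 was called higher and 2 were called lower, where 14.6% and 13.5% of all tested genes were called in those directions. Between IVM MII and GV, 2 of 4 were called, where 36.3% of all tested genes were, and 3 stood at an unadjusted p under 0.05, where 47.5% did. Of the 4, 1 was called higher and 1 lower, where the shares of all tested genes were 18.5% and 17.8%. With so many genes called against GV, a few calls among 4 members are no result about the group. The CPM ranges of IVM and IVO MII did not overlap for 3 of the 4, where 33.8% of all tested genes did not overlap. The ranges of IVO MII and GV, and those of IVM MII and GV, did not overlap for 4 of 4, where 72.8% and 69.1% of all tested genes did not. The comparisons of IVM MII and of IVO MII with GV share the GV libraries and are not independent.

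**Figure D2:**
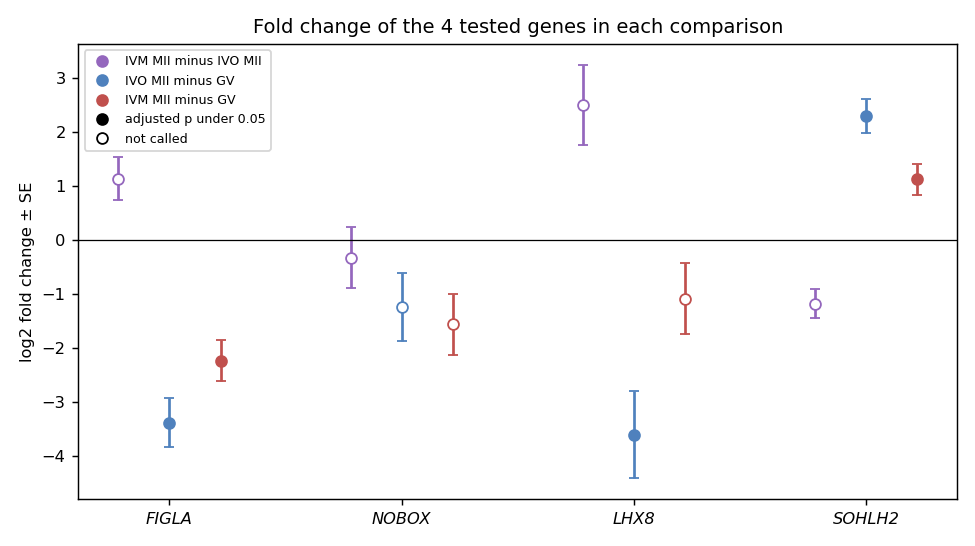
Log2 fold change with its SE for the 4 tested genes in each of the 3 comparisons; filled points have an edgeR adjusted p under 0.05. SOHLH2 lies above 0 in both comparisons with GV, at 2.30 and 1.13, while FIGLA lies at -3.37 and -2.23.

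The order of the 5 genes by level per length differed between MII and GV oocytes. In IVM MII, SOHLH2 came first at 122 ± 14.1 RPKM. FIGLA at 26.0 ± 9.39 RPKM and LHX8 at 21.4 ± 13.1 RPKM followed and overlapped. NOBOX had 2.35 ± 0.844 RPKM. In IVO MII, SOHLH2 at 274 ± 7.80 RPKM stood far above FIGLA at 11.8 ± 0.363 RPKM. LHX8 at 3.72 ± 2.47 RPKM and NOBOX at 2.93 ± 2.13 RPKM overlapped below FIGLA. In GV, FIGLA came first at 122 ± 9.08 RPKM, and SOHLH2 at 55.5 ± 9.19 RPKM and LHX8 at 45.3 ± 12.1 RPKM overlapped. NOBOX had 6.93 ± 0.214 RPKM in GV. SOHLH1 was last in all groups, at 0.0621 ± 0.108 RPKM in IVM MII, 0 RPKM in IVO MII and 0.431 ± 0.451 RPKM in GV. Among all tested genes ranked by RPKM, SOHLH2 stood at percentiles 94.4 to 96.0 in IVM MII, 98.0 and 98.6 in IVO MII, and 91.3 and 92.6 in GV. FIGLA stood at percentiles 80.8 to 87.5 in IVM MII, 76.2 and 77.04 in IVO MII, and 96.5 in both GV libraries.

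Ratios of members within a library do not depend on how libraries are scaled against each other. SOHLH2 had 4.81, 3.14 and 7.56 times the RPKM of FIGLA in IVM MII, 23.2 and 23.2 times in IVO MII, and 0.422 and 0.481 times in GV. On the log2 scale this ratio averaged 2.28 ± 0.634 in IVM MII, 4.54 ± 0.00327 in IVO MII and -1.15 ± 0.133 in GV. The 3 groups did not overlap, and IVM MII lay between the others in each library. The ratio of FIGLA to LHX8 was 0.868, 1.18 and 2.84 in IVM MII, 5.84 and 2.20 in IVO MII, and 2.16 and 3.51 in GV. The ranges of the 3 groups overlapped, and IVM MII replicates 1 and 2 were lowest. LHX8 had 15.8, 15.0 and 1.94 times the RPKM of NOBOX in IVM MII, 1.39 and 1.23 times in IVO MII, and 7.60 and 5.42 times in GV. IVM MII replicate 3 again stood nearer to IVO MII than the other IVM MII libraries did. SOHLH2 made up 71.2% ± 10.7 of the summed RPKM of the 5 genes in IVM MII, 93.7% ± 1.43 in IVO MII and 24.0% ± 3.41 in GV. FIGLA made up 15.0% ± 4.49 in IVM MII, 4.04% ± 0.0523 in IVO MII and 53.1% ± 2.67 in GV. The sum itself does depend on scaling. It was 171 ± 10.6 RPKM in IVM MII, 292 ± 12.8 in IVO MII and 231 ± 5.52 in GV, and without TMM factors 147 ± 18.9 in IVM MII, 266 ± 42.8 in IVO MII and 323 ± 0.998 in GV, which turns the order of IVO MII and GV. No test was run on these ratios, shares and sums.

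**Figure D3:**
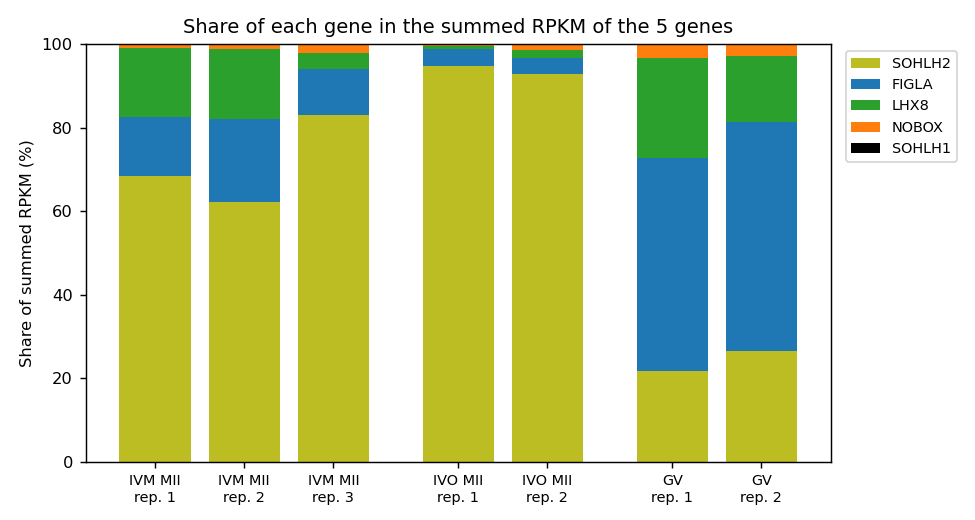
Share of each gene in the summed RPKM of the 5 genes, 1 bar per library. SOHLH2 fills 94.7% and 92.7% of the bar in IVO MII and 21.6% and 26.4% in GV, where FIGLA fills 51.2% and 55.0%.

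FIGLA, SOHLH1 and SOHLH2 bind DNA as dimers, and E proteins (TCF3, TCF4 and TCF12) are general bHLH partners that ID proteins block. All 7 genes of that list were found and 6 were tested. EdgeR called, between IVM and IVO MII, 0 of 6, with 2 at an unadjusted p under 0.05, and DESeq2 called 1, limma voom 0 and the newer edgeR fit 0. In that order, the shares of all tested genes were 1.47%, 21.1%, 12.3%, 3.04% and 4.71%, for this list and those that follow. The 2 genes at an unadjusted edgeR p under 0.05 were ID1 and ID2, and ID1 had 21 counts in IVM MII and 0 in IVO MII. The median log2 fold change was 0.67, against 0 over all tested genes. Between IVO MII and GV, 1 of 6 rose and 1 fell, where 28.1% of all tested genes were called (median -1.44, against -0.16 over all tested genes). That median pools partners and inhibitors. TCF3 (0.75) and TCF4 (2.62) were higher in IVO MII, and the partner TCF12 (-1.39) was lower. The inhibitors ID1 (-7.47, at 0 counts in IVO MII), ID2 (-2.35) and ID3 (-1.50) were lower. TCF4 rose to 7.88 ± 0.257 CPM in IVO MII, against 1.28 ± 0.463 CPM in GV (log2 fold change 2.62, SE 0.84, edgeR adjusted p = 0.0473). ID2, an inhibitor, fell to 10.7 ± 3.97 CPM in IVO MII, against 54.9 ± 35.5 CPM in GV (-2.35, SE 0.74, edgeR adjusted p = 0.0431). Between IVM MII and GV, 2 of 6 rose and 0 fell, where 36.3% of all tested genes were called (median -0.49, against -0.10 over all tested genes). TCF12 and the tested ID genes had negative values there, from -0.44 (ID2) to -1.79 (ID3). TCF3, the E protein known as FIGLA's partner in the mouse, rose to 66.7 ± 27.1 CPM in IVM MII, against 28.4 ± 8.09 CPM in GV (1.23, SE 0.42, edgeR adjusted p = 0.0482). TCF4 had 7.01 ± 5.98 CPM in IVM MII (2.45 against GV, SE 0.80, edgeR adjusted p = 0.0415). These calls were fragile. That of TCF3 held in 0 of the 7 fits that left out a library, and those of TCF4 and ID2 held in 2 of 7 each between IVO MII and GV, TCF4 in 3 of 7 between IVM MII and GV.

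LHX8 belongs to the LIM homeodomain family, which works with LDB cofactors and SSBP proteins and competes with LMO proteins for them. All 10 genes of that list were found and 9 were tested. EdgeR called, between IVM and IVO MII, 0 of 9, with 2 at an unadjusted p under 0.05, and DESeq2 called 2, limma voom 0 and the newer edgeR fit 0 (median log2 fold change 0.20). Between IVO MII and GV, 1 rose and 2 fell, or 3 of 9 where 28.1% of all tested genes were called (median -0.46, against -0.16 over all tested genes). LMO4 fell to 6.33 ± 1.96 CPM in IVO MII, against 21.5 ± 3.37 CPM in GV (-1.76, SE 0.52, edgeR adjusted p = 0.0349). RLIM, a ubiquitin ligase of LDB proteins, fell to 14.6 ± 0.506 CPM in IVO MII, against 41.5 ± 4.44 CPM in GV (-1.50, SE 0.39, edgeR adjusted p = 0.0224). SSBP3 rose to 43.8 ± 5.23 CPM in IVO MII, against 18.3 ± 0.255 CPM in GV (1.26, SE 0.37, edgeR adjusted p = 0.0362). Of the 7 fits that left out a library, the call held in 4 for LMO4, 3 for RLIM and 1 for SSBP3. Between IVM MII and GV edgeR called 0 of 9, with 1 at an unadjusted p under 0.05, and DESeq2 called 2, limma voom 1 and the newer edgeR fit 2 (median -0.26, against -0.10). Those 3 tools called 43.6%, 45.3% and 47.1% of all tested genes there, in that order, and edgeR called 36.3%.

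Other transcription regulators of the oocyte formed a list of 13 genes, all tested. It holds TBPL2, TAF4B, STAT3, DYNLL1 and SUB1, several of which were used together with members here to convert mouse stem cells to oocyte-like cells. It also holds FOXO3, YBX2, POU5F1, the NF-Y subunits and the TFIIA subunit genes. EdgeR called, between IVM and IVO MII, 0 of 13, with 2 at an unadjusted p under 0.05, and DESeq2 called 1, limma voom 0 and the newer edgeR fit 0 (median log2 fold change -0.14). Between IVO MII and GV, 2 rose and 3 fell, or 5 of 13, where 28.1% of all tested genes were called (median 0.35, against -0.16). In IVM MII against GV, 3 rose and 4 fell, or 7 of 13, where 36.3% of all tested genes were called (median 0.44, against -0.10). TBPL2, a TBP relative that takes over basal transcription in the growing mouse oocyte, fell to 22.3 ± 0.865 CPM in IVO MII, against 85.1 ± 1.87 CPM in GV (-1.93, SE 0.36, edgeR adjusted p = 0.00616). It also fell in IVM MII, to 18.8 ± 2.69 CPM (-2.17 against GV, SE 0.32, edgeR adjusted p = 0.00206). DYNLL1, a dynein light chain, fell to 11.2 ± 9.56 CPM in IVO MII, against 227 ± 26.5 CPM in GV (-4.34, SE 0.81, edgeR adjusted p = 0.00604). In IVM MII DYNLL1 fell to 53.7 ± 33.4 CPM (-2.08 against GV, SE 0.64, edgeR adjusted p = 0.0335). The NF-Y subunit gene NFYC fell to 8.34 ± 3.897 CPM in IVM MII and 13.4 ± 7.005 CPM in IVO MII, against 93.4 ± 11.7 CPM in GV (-3.48 and -2.80). NFYB, of the same complex, rose to 34.0 ± 5.74 CPM in IVM MII and 34.0 ± 17.97 CPM in IVO MII, against 6.91 ± 1.99 CPM in GV (2.30 each). YBX2, a germ cell mRNA-binding protein, fell to 1.96 ± 1.10 CPM in IVM MII, against 14.4 ± 2.31 CPM in GV (-2.87, SE 0.65, edgeR adjusted p = 0.01). SUB1, a transcription coactivator, rose to 1363 ± 511 CPM in IVM MII, against 217 ± 61.8 CPM in GV (2.65, SE 0.69, edgeR adjusted p = 0.0178). The calls of DYNLL1 in IVO MII, and of NFYC in IVM MII, held in all 7 fits that left out a library. DYNLL1 and SUB1 have processed copies in the human genome, and reads shared with such copies would make their counts uncertain. The calls of NFYC and NFYB were lost without GV replicate 1 (NFYC in IVO MII only, NFYB in both kinds), NFYB in IVO MII also when GV replicate 2 or IVO MII replicate 1 was left out. The calls of TBPL2 in IVO MII and SUB1 in IVM MII were lost without either GV library, and that of YBX2 without GV replicate 2.

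The last list held 19 oocyte genes, some known in the mouse to need FIGLA, NOBOX, LHX8 or a SOHLH factor (zona genes, GDF9, BMP15, POU5F1) and others included as further oocyte genes. POU5F1 and TAF4B stand on this list and the one before. In IVM against IVO MII, 2 rose and 1 fell, or 3 of 19, where 1.47% of all tested genes were called (median log2 fold change 0.56, against 0). DESeq2 called 5 of 19, limma voom 3 and the newer edgeR fit 3, where they called 12.3%, 3.04% and 4.71% of all tested genes. JAG1, a Notch ligand, had 1552 ± 303 CPM in IVM MII and 296 ± 122 CPM in IVO MII (2.39, SE 0.38, edgeR adjusted p = 0.0291). The zona gene ZP2 had a log2 fold change of 1.90 and OOEP, of the subcortical maternal complex, one of -1.62. Each of these 3 calls was lost when IVM MII replicate 1 or 2, IVO MII replicate 2 or GV replicate 2 was left out, and those of ZP2 and OOEP also with GV replicate 1 left out. Between IVO MII and GV, 2 rose and 5 fell, or 7 of 19, where 28.1% of all tested genes were called (median -0.74, against -0.16). In IVM MII against GV, 4 rose and 5 fell, or 9 of 19, where 36.3% were called (median 0.13, against -0.10). MOS, the kinase behind MII arrest, fell to 105 ± 44.0 CPM in IVM MII and 32.8 ± 12.7 CPM in IVO MII, against 544 ± 183 CPM in GV (-2.37 and -4.05). NPM2, a chromatin chaperone, fell to 68.6 ± 21.7 CPM in IVM MII and 40.7 ± 22.6 CPM in IVO MII, against 489 ± 9.64 CPM in GV (-2.83 and -3.59). KDM1B, a histone demethylase gene, rose to 989 ± 325 CPM in IVM MII and 744 ± 372 CPM in IVO MII, against 117 ± 23.4 CPM in GV (3.08 and 2.67). KIT, the receptor of the oocyte's growth signal, rose to 21.3 ± 9.79 CPM in IVM MII, against 0.888 ± 0.443 CPM in GV (4.58, SE 1.09, edgeR adjusted p = 0.0126). The calls of MOS and NPM2 held in all 7 fits that left out a library in both comparisons, those of KDM1B in 7 of 7 for IVM MII and 6 of 7 for IVO MII (lost without GV replicate 1). The KIT call in IVM MII was lost without either GV library. In IVO MII KIT had 8.90 ± 10.6 CPM (3.32, SE 1.06, edgeR adjusted p = 0.0468), a call kept in 1 of 7 such fits.

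**Figure D4:**
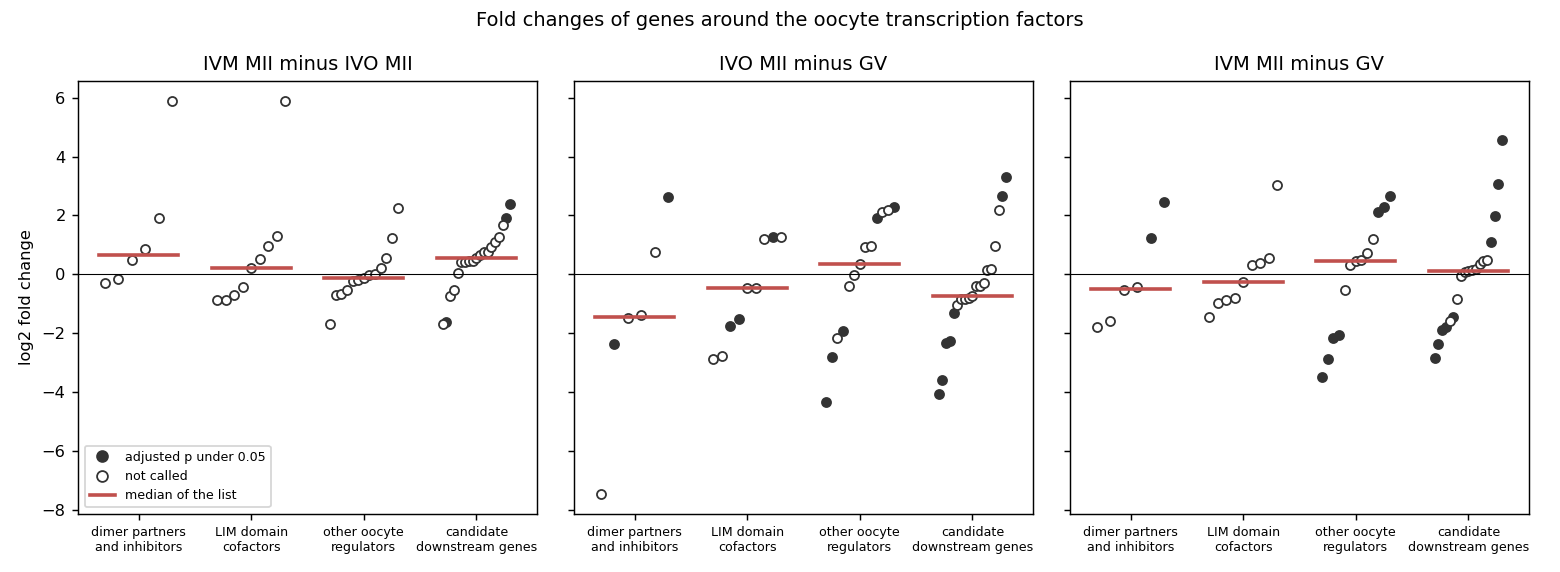
Log2 fold changes of the tested genes of the 4 lists in the 3 comparisons, sorted within a list; filled points have an edgeR adjusted p under 0.05 and red lines are list medians. Calls between IVO MII and GV lie on both sides of 0 in all 4 lists, those between IVM MII and GV in 2 of them, and the open point at -7.47 is the fitted value of ID1, which had 0 counts in IVO MII.

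Genes whose profile over the 7 libraries lay nearest to a member were taken by the smallest root mean square difference of log2(CPM + 1), each gene centred on its own mean, among 7892 named genes with a mean of at least 5 CPM. For FIGLA the nearest was UCHL1, a deubiquitinase gene, at a difference of 0.0867, against a median of 1.54 over all candidates. UCHL1 had 126 ± 47.8 CPM in IVM MII, 55.4 ± 6.87 CPM in IVO MII and 553 ± 64.0 CPM in GV. SLC25A17 (0.137) and C13H2orf71 (0.164) came next. For SOHLH2 the nearest were NFATC3 (0.131), H2AX (0.162) and PCYT1A (0.169), against a median of 1.05. NFATC3, a calcium-regulated transcription factor gene, had 30.6 ± 6.22 CPM in IVM MII, 68.5 ± 16.0 CPM in IVO MII and 13.9 ± 2.47 CPM in GV. For NOBOX they were OGDH (0.127), OSBPL5 (0.156) and PEBP1 (0.179), against a median of 1.14. For LHX8 the nearest genes, TMEM99 (0.377), FKBP9 (0.407) and ZNF567 (0.407), lay farther off, against a median of 1.77. Members were not each other's nearest profiles. From LHX8, FIGLA was the nearest member, at rank 117, while from FIGLA LHX8 came at rank 809, NOBOX at 1210 and SOHLH2 at 6733. With 7 libraries and so many candidates, close profiles are a description of these libraries only.

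The genes next to the members on the chromosome were counted as well. Of the 10 flanking genes, 8 were tested. The lowest edgeR adjusted p among them was 0.388 between IVM and IVO MII (ADD2, beside FIGLA). Between IVO MII and GV edgeR called 0 of 8, where 28.1% of all tested genes were called. In IVM MII against GV it called 1 of 8, where 36.3% of all tested genes were called. That gene was DCLK1, beside SOHLH2, at 9.93 ± 2.65 CPM in IVM MII and 3.11 ± 1.02 CPM in GV (log2 fold change 1.67, SE 0.57, edgeR adjusted p = 0.0476). ADD2 and DCLK1 were singled out after their values were seen. On the other side of SOHLH2, CCDC169 had 3.71 ± 0.566 CPM in IVM MII, 2.02 ± 1.17 CPM in IVO MII and 2.17 ± 1.402 CPM in GV, with a log2 fold change of -0.10 (SE 0.81) between IVO MII and GV. In human annotation CCDC169 and SOHLH2 also share a readthrough transcript, and no such row was used here. LOC107127172, the closest neighbour of LHX8, had 0 counts in all MII libraries and 15 counts in GV.

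The summed level of cumulus and granulosa cell markers was higher in every MII library than in GV, while IVM and IVO MII overlapped. TNFAIP6, FSHR and HAS2 carried most of the sum, on which no test was run. That sum, over the 16 markers found, was 98.2 to 220 CPM in IVM MII, 65.5 and 110 CPM in IVO MII, and 18.7 and 19.9 CPM in GV. Those 3 genes made up 97.7% to 98.8% of it in IVM MII, 83.3% and 91.7% in IVO MII, and 92.7% and 95.9% in GV. The remaining markers summed to 4.02, 3.59 and 1.17 CPM in IVM MII, 18.3 and 5.44 CPM in IVO MII, and 1.36 and 0.822 CPM in GV. In that remainder IVM MII replicate 3 lay below GV replicate 1, and IVM and IVO MII did not overlap. Between the MII groups TNFAIP6, FSHR and HAS2 did not go the same way. HAS2 had 14.3 ± 4.94 CPM in IVM MII, against 39.0 ± 0.625 CPM in IVO MII. TNFAIP6 and FSHR were lower in IVO MII, at 32.2 ± 19.7 and 4.66 ± 1.91 CPM, than in IVM MII, at 107 ± 47.3 and 35.2 ± 16.4 CPM. Of 6 tested markers, 0 were called between IVM and IVO MII by edgeR (4 at an unadjusted p under 0.05, 4 called by DESeq2, 2 by limma voom and 2 by the newer edgeR fit). The shares of all tested genes were 1.47% called by edgeR, 21.1% at an unadjusted p under 0.05, and 12.3%, 3.04% and 4.71% called by the other tools. Against GV, 2 of the 6 rose in IVO MII, where 28.1% of all tested genes were called. In IVM MII, 2 rose and 1 fell, where 36.3% of all tested genes were called. FSHR rose to 35.2 ± 16.4 CPM in IVM MII, against 1.63 ± 0.823 CPM in GV (4.43, SE 0.67, edgeR adjusted p = 0.00224), and TNFAIP6 to 107 ± 47.3 CPM, against 10.5 ± 4.68 CPM (3.34). HAS2 rose to 39.0 ± 0.625 CPM in IVO MII, against 6.06 ± 2.67 CPM in GV (2.68, lost without GV replicate 2), and VCAN to 4.68 ± 2.69 CPM, against 0.278 ± 0.0350 CPM (4.05, edgeR adjusted p = 0.024). The 1 that fell was CYP19A1, the aromatase gene of granulosa cells, with 0 counts in IVM MII, 225 in IVO MII and 23 in GV (edgeR adjusted p = 0.0366 for IVM MII against GV). Against the limit of 3 counts a library, its mean level was at least 2.64-fold lower in IVM MII than in GV. CYP19A1 missed the threshold between IVM and IVO MII (edgeR adjusted p = 0.0514), where the IVO MII libraries had 1.23 and 9.84 CPM. STAR, a steroid synthesis gene, had 0 counts in all MII libraries and 15 counts in GV. VCAN, CYP19A1 and STAR were singled out after their values were seen. VCAN had 201 counts in IVO MII and 18 in GV. Whether the calls of VCAN and CYP19A1 hold with single libraries left out is not given here. The other markers found were low or absent. AMH, PTX3 and PTGS2 had 0 counts in all 7 libraries. In IVM MII, IVO MII and GV, in that order, GJA1 had 36, 57 and 8 counts, HSD3B2 22, 0 and 6, and INHA 10, 9 and 1. FOXL2 had 4, 1 and 0 counts, INHBA 1, 1 and 0, AMHR2 0, 5 and 0, and KITLG 0, 1 and 0. The part of such cells in the members' values was not tested.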

How the data were processed

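Expression was measured in 7 libraries of full-length cDNA primed on poly(A) tails, amplified and sequenced as read pairs. The deposited values are whole-number read counts per gene that the authors made before deposit, per the submitters' processing notes with Trim Galore 0.6.7, Bowtie2 2.4.5, SAMtools 1.15.1 and featureCounts 2.0.1 (DESeq2 is named without a version). The genome build is not given in the sources used here. Of the table, 28161 gene rows were used, and 10 broken lines of 3 genes were left out. Differences were tested with edgeR 4.0.16 in R 4.3.3: quasi-likelihood fit over all 7 libraries, TMM scaling, low counts filtered by group, two-sided, Benjamini-Hochberg adjustment over 16374 tested genes and an adjusted p under 0.05. The SE was derived from the fold change and its F statistic. Alternatives used DESeq2 1.42.0, limma 3.58.1 (voom), other scalings, no filter, a replicate block and single libraries left out. The newer edgeR fit, with bias-adjusted deviances, was added after seeing the data. Counting intervals of SOHLH1 ratios are exact binomial at 95%, on the split of summed counts between 2 groups. They and the limit of 3 counts for a count of 0 cover counting error only. The fit was tested on simulated data.

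The members and gene lists were chosen with earlier results of these data known, so counts over them are descriptions. From each list, up to 4 called genes per comparison were named, those with the highest absolute log2 fold change and at least 5 CPM in the higher group, plus the 3 nearest profiles of each member. Other genes were named after their values were seen.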

Additional observations from a re-analysis of the deposited data

How the results depend on the processing

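The calls of FIGLA against GV, in IVM MII and in IVO MII, and of SOHLH2 in IVO MII against GV held in all 17 alternatives. LHX8 in IVO MII against GV held in 15 of 17, and SOHLH2 in IVM MII against GV in 15 of 17. Between IVM and IVO MII the log2 fold change of NOBOX ranged from -0.91 to 0.65 with single libraries left out, and it reversed to 0.65 without IVO MII replicate 2 (edgeR adjusted p = 0.594). Between IVM and IVO MII, where 241 genes were called, 731 were called with no filter, 2010 with DESeq2, 497 with limma voom, 54 with only those groups in the fit and 772 with the newer edgeR fit, which was chosen after seeing the data. Members called there numbered 2 with DESeq2, 1 with limma voom and 1 with the newer fit, against 0.

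With single libraries left out, 0 to 1277 genes and 0 to 2 members were called between IVM and IVO MII. These fits tested 4 members, or 5 where SOHLH1 passed the filter. The count was 0 without IVM MII replicate 1 (2703 at an unadjusted edgeR p under 0.05) and without IVM MII replicate 2 (2549), 1277 without IVM MII replicate 3, 364 and 22 without IVO MII replicates 1 and 2, and 96 and 64 without GV replicates 1 and 2. Between IVO MII and GV, where 4596 were called, the counts were 1484 to 5517 genes and 2 to 4 members, with 1484 and 1700 genes without GV replicates 1 and 2 and 3011 without IVO MII replicate 1. Between IVM MII and GV, where 5949 were called, they were 2110 to 6716 genes and 1 to 3 members, with 2110 and 2550 genes, and 1 member each, without GV replicates 1 and 2.

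Replicate numbers were not taken as pairing the libraries: deviations of same-numbered libraries correlated at 0.353 and -0.177 between IVM and IVO MII, -0.234 between IVO MII and GV, and -0.171 and 0.11 between IVM MII and GV. With the replicate block, 1238 genes and 1 member (LHX8) were called between IVM and IVO MII. With the GV numbers crossed, chosen after seeing the data, 1924, 5623 and 6452 genes were called in the 3 comparisons, with 2, 3 and 3 members. The labels also give IVO MII replicate 2 the number 3 in the name of its alignment, and by that number its partner is IVM MII replicate 3 (correlation 0.406). That leaves 2 pairs of IVM and IVO MII and does not show pairing. With these numbers as the replicate block, also chosen after seeing the data, 832, 5079 and 6973 genes and 1 (SOHLH2), 4 and 3 members were called. Upper quartile scaling moved the median of all genes by -0.11 between IVM and IVO MII and between IVM MII and GV, and the share of higher calls between IVM and IVO MII to 50.4%, against 60.6%. RLE scaling moved the median by -0.14 between IVM MII and GV. Without TMM factors 7 of 15 RPKM levels moved by more than the SD. Of fold changes of members, 175 kept their side of the threshold, 24 became calls, 4 lost the call and 1 reversed. The cause of these changes was not tested. Depth limits what can be said of SOHLH1, at 0 to 35 counts a library.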
